A study of Mus musculus with 10 samples.

Results

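The 10 genes described here, Cd68, Csf1r, Adgre1, Cd163, Mrc1, Aif1, Itgam, Tyrobp, Trem2 and Cd14, are commonly used to recognise macrophages, and they were chosen by name. All 10 were on the array, with 13 probe sets among 45037 and as 10 of 18193 named genes. The values come from cochleae, the hearing organs of the inner ear, of male mice aged 9 months. The D257A group (5 arrays) was labelled PolgD257A/D257A, carrying on both alleles a form of the mitochondrial DNA polymerase that cannot proofread, and mitochondrial DNA mutations accumulate in such mice. The wild-type group (5 arrays) was labelled Polg+/+. No drug or other agent was named for either group, the labels do not say whether an array holds 1 animal or several, and the design text states that replicates were not made, so the p-values measure the spread between these samples, which may be technical.

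Macrophages of the inner ear live in the spiral ligament, the stria vascularis, the spiral ganglion and around blood vessels. They depend on signals through the receptor encoded by Csf1r, clear debris with scavenger receptors, and sense damage and microbial products through receptors such as Cd14 and the Trem2-Tyrobp complex. Most of these genes are shared with monocytes, and Itgam, Tyrobp and Cd14 also with neutrophils. In bulk tissue, fewer cells of a type and less RNA per cell cannot be told apart.

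None of the macrophage genes differed between the genotypes past the test, and the 5 D257A arrays did not lie wholly outside the wild-type range for any of them. Tyrobp had the smallest unadjusted p, with a signal of 5269 ± 1331 in D257A and 3677 ± 607.6 in wild-type cochleae (SD, n = 5 each). Cd14 stood apart in another way: it was close to the wild-type level on 3 D257A arrays and far above it on the other two. The pan-macrophage genes Csf1r, Adgre1, Cd68, Mrc1 and Aif1 lay within a log2 fold change of 0.25 of no difference by their brightest probe sets, with intervals given below; the sign for Csf1r differed between its probe sets.

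The test was limma on log2(signal + 16), fitted to the brightest 50% of probe sets, with p-values adjusted by the Benjamini-Hochberg method at 0.05. Fold changes carry the added 16, which makes those of dim genes too small. Of several probe sets for 1 gene, the brightest stood for the gene. In the brightest 50%, 7 of the 10 macrophage genes were tested and 0 were called, where 2.32% of the 11871 genes tested were called. At an unadjusted p under 0.05, 1 of the 7 passed, against 16.7% of the genes tested. Cd163, Itgam and Trem2 were too dim for that fit. In the fit with no filter, 0 of the 10 were called, against 1.50% of all named genes. Separate groups were seen for 0 of 10 macrophage genes and for 4.86% of all named genes. The median log2 fold change of the 10 was -0.03, beside 0.0311 over all named genes. Over the 7 in the brightest 50%, the basis of the medians and sums of the other lists below, it was 0.176 (5 above 0 and 2 below), beside -0.0223 over the genes tested.

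**Figure D1:**
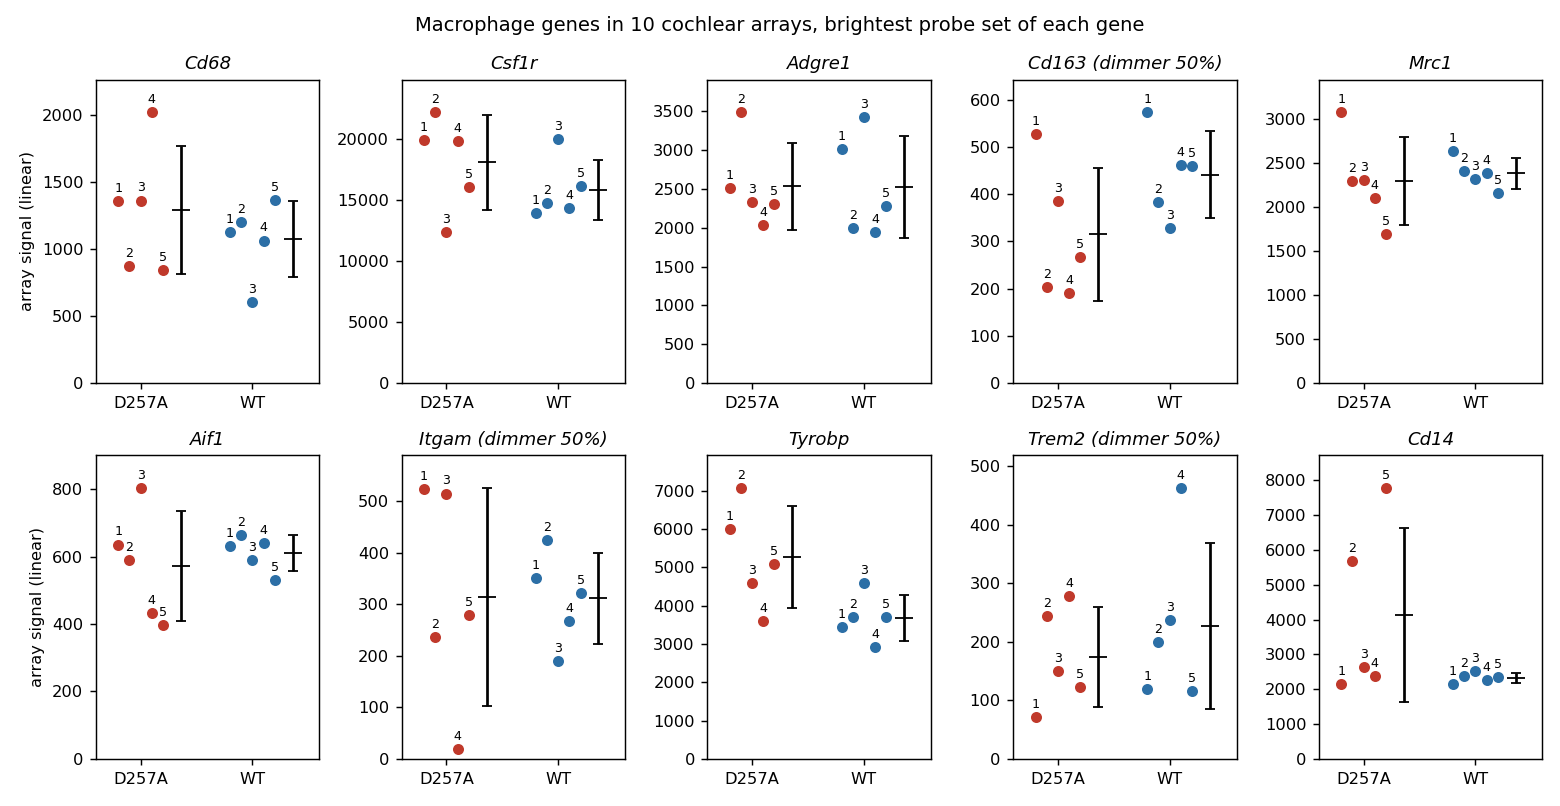
Array signal (linear scale from 0) of the brightest probe set of each of the 10 macrophage genes; each point is 1 array with its replicate number, D257A left and wild type right, and the bars give mean ± SD (n = 5 each). The groups overlap in all 10 panels, and the 2 high Cd14 points are D257A replicates 2 and 5.

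Over the whole array, 513 of 22519 probe sets (2.28%) were called, 233 higher and 280 lower in D257A. Centring arrays on their median moved the median log2 fold change of all named genes from 0.0311 to -0.0696 and the split to 174 higher and 479 lower. Median signals per array were 551.7 to 649.3, and the number of arrays limits the precision. The mean correlation with the other arrays of the same group was lowest for D257A replicate 2 (0.89) and D257A replicate 4 (0.906), and lowest among wild-type arrays for replicate 3 (0.914). Of 20 cochlear genes, 15 were in the brightest 50% and 0 were called, with summed signals of 169171 to 251782 in D257A and 184645 to 261773 in wild type; Tecta, Slc26a5, Pou4f3 and Oc90 were dimmer. List sizes here and below count every gene named, including those without a probe set of their own. Of the 20 cochlear genes, 19 had a probe set. Calls among muscle and mucosal markers are given with the lysozyme gene below.

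Csf1r encodes the receptor tyrosine kinase for the growth factors CSF1 and IL34, on which macrophages depend. Its brightest probe set, 1419872_at, had signals of 19922.4, 22154.6, 12359.8, 19824.3 and 16005.3 on D257A arrays 1 to 5, against 13918.4, 14700.4, 19927.8, 14297 and 16139.5 on wild-type arrays 1 to 5. D257A replicate 2 was above every wild-type array, D257A replicates 1 and 4 were above all but wild-type replicate 3, and D257A replicate 3 was the lowest of all. The log2 fold change was 0.18 (95% interval -0.21 to 0.57, limma adjusted p = 0.669).

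The other two Csf1r probe sets had the opposite sign. Probe set 1419873_s_at measured 4263 ± 1334 in D257A and 4916 ± 440.4 in wild-type cochleae (SD, n = 5 each; log2 fold change -0.25, interval -0.68 to 0.18), and 1423593_a_at 2378 ± 594.2 and 2426 ± 267.8 (log2 fold change -0.06). Only 1423593_a_at of the 3 had an accession in the platform table, and which transcript the brightest one measures was not checked here. D257A replicate 4 was highest for both of these, at 6413.1 and 3295.5, and the 3 probe sets did not order the arrays alike.

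Beside the receptor, its ligands and the factors of its pathway were read. Of 11 genes of the CSF1 receptor axis, 8 were in the brightest 50% and 1 was called, lower in D257A, with a median log2 fold change of 0.203 over the 8. Csf1, the growth factor, measured 2482 ± 190.8 in D257A and 2210 ± 197.4 in wild-type cochleae (SD, n = 5 each; limma adjusted p = 0.585). The called gene was Cebpa, a transcription factor of granulocytes and monocytes that is also active in fat and liver, which measured 2126 ± 385.6 in D257A and 4319 ± 1222 in wild type (log2 fold change -0.99, adjusted p = 0.0322). Leaving out D257A replicate 1, 3 or 5 or wild-type replicate 1, 2 or 5 ended its call, with an adjusted p of up to 0.104. Csf2rb, the shared chain of the GM-CSF receptor, had 3559.2 and 2388.8 in D257A replicates 2 and 5, against 733.5 to 884.8 in wild type (adjusted p = 0.355).

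Spi1 encodes PU.1, the transcription factor that drives macrophage genes, including Csf1r, through purine-rich sites. Its signals were 785.4, 1552.7, 771.7, 1060.3 and 1367 on D257A arrays 1 to 5, against 734.3, 588.8, 718.4, 838.5 and 932 on wild-type arrays 1 to 5. D257A replicates 2, 4 and 5 were above all wild-type arrays, and the log2 fold change of 0.49 did not pass (adjusted p = 0.307). Because PU.1 links the macrophage genes, promoter windows that hold its core sequence are shown.

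The core GAGGAA was searched on both strands of RefSeq promoters of GRCm38.p6, from 250 bases before the start to 50 after it. Of the 10 genes, 6 matched the table, and Adgre1, Csf1r, Tyrobp and Cd14 did not. The core was found in 5 of the 6, in Cd68, Mrc1, Aif1, Itgam and Trem2 and not in Cd163, against 28.3% of 32851 promoters in the table. One upstream window of each of 4 genes follows, 5′ to 3′ on the gene's own strand, with the core or its reverse complement in capitals.
Itgam (chr7:128062539-128062578, plus strand, core at -84): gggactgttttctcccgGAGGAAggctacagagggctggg
Cd68 (chr11:69666373-69666412, minus strand, core at -225): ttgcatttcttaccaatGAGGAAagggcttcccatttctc
Trem2 (chr17:48346344-48346383, plus strand, reverse complement at -40): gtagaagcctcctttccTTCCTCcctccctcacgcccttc
Mrc1 (chr2:14229362-14229401, plus strand, reverse complement at -35): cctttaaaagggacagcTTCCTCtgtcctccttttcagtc
A match is a description of these letters and not a binding site, and no binding was measured here.

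The surface and lysosomal genes used to count macrophages showed no common direction. Adgre1 encodes F4/80, an adhesion receptor of mouse macrophages. It had signals of 2504.9, 3482.7, 2325.7, 2037.5 and 2305.5 on D257A arrays 1 to 5, against 3008.9, 1989.9, 3416.8, 1937.2 and 2273.4 on wild-type arrays 1 to 5. The highest 2 were D257A replicate 2 and wild-type replicate 3, both among the arrays least correlated with their groups. The group means were nearly equal, 2531 ± 557.4 in D257A and 2525 ± 656.6 in wild type (SD, n = 5 each), with a log2 fold change of 0.02 (interval -0.43 to 0.47) that turned to -0.08 when arrays were centred on the median.

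Cd68 encodes macrosialin, a glycoprotein of late endosomes and lysosomes. Its signals were 1355.5, 871.5, 1362, 2020 and 845.1 on D257A arrays 1 to 5, against 1128.2, 1198.8, 607.5, 1063.7 and 1367.4 on wild-type arrays 1 to 5. D257A replicate 4 alone was above the wild-type range, and D257A replicates 2 and 5 were below 4 of the 5 wild-type arrays. This gave a log2 fold change of 0.24 (interval -0.36 to 0.84, limma adjusted p = 0.718).

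Aif1 encodes Iba1, a calcium-binding protein of the macrophage cytoskeleton. It lay just inside the brightest 50%, whose lowest mean signal was 577, and measured 636.1, 591.3, 803.9, 434.2 and 398 on D257A arrays 1 to 5, against 631.9, 663.7, 590.4, 639.8 and 530.3 on wild-type arrays 1 to 5. The D257A values reached further in both directions than the wild-type ones. On the log2 scale the difference was -0.13 (interval -0.61 to 0.34, adjusted p = 0.811).

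**Figure D2:**
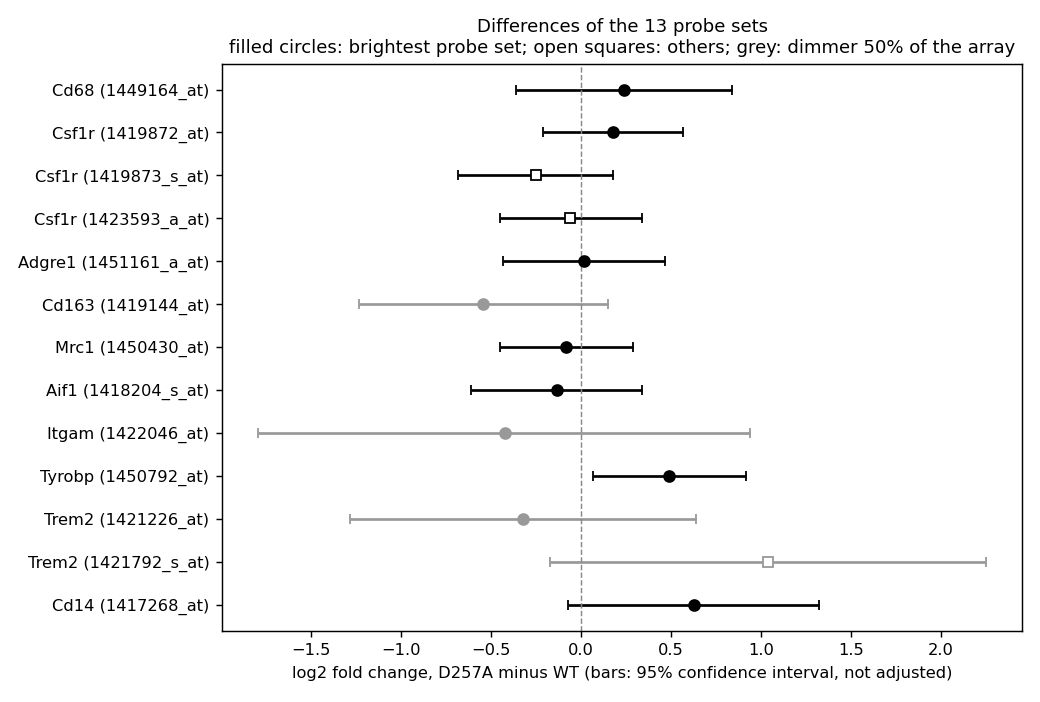
Log2 fold change, D257A minus wild type, of each of the 13 probe sets with its unadjusted 95% interval; filled circles are the brightest probe set of a gene, open squares the others, and grey marks the dimmer 50% of the array. Only the interval of Tyrobp, 0.07 to 0.92, leaves out 0.

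The scavenger receptors Mrc1 and Cd163 mark resident and perivascular macrophages. Mrc1 encodes the mannose receptor CD206. It had signals of 3078.1, 2301.8, 2303.6, 2103 and 1691.7 on D257A arrays 1 to 5, against 2634.8, 2407.8, 2318.1, 2389.4 and 2162.6 on wild-type arrays 1 to 5. The highest and the lowest array were both D257A, and the wild-type arrays were close together. On the log2 scale the difference was -0.08 (interval -0.45 to 0.29, limma adjusted p = 0.866).

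Cd163 encodes the receptor that clears haemoglobin bound to haptoglobin. Its signals were 526.2, 202.9, 386.1, 191.8 and 267.7 on D257A arrays 1 to 5, against 573.2, 384.3, 327.3, 462.6 and 459.1 on wild-type arrays 1 to 5. D257A replicates 2, 4 and 5 were below all wild-type ones. The log2 fold change was -0.54 (interval -1.23 to 0.15) with an adjusted p of 0.433 in the fit with no filter, and no value was shown to be above background.

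Other scavenger and endocytic receptors were tested beside them. Of 16, 11 were in the brightest 50% and 0 were called (1 higher and 3 lower at an unadjusted p under 0.05), with a median log2 fold change of -0.0797. Cd36, a lipid scavenger receptor that is also abundant in fat, muscle and endothelium, measured 2274 ± 970.3 in D257A and 4629 ± 811.6 in wild-type cochleae (SD, n = 5 each; log2 fold change of -1.12, limma adjusted p = 0.0589); it passed in 4 of 21 settings, without D257A replicate 2 (adjusted p = 0.0279), without both that array and wild-type replicate 3 (0.0333), with arrays centred on the median (0.0413) and with array weights (0.00675). Stab1, stabilin of tissue macrophages and sinusoidal endothelium, measured 789.9 ± 211.5 and 1184 ± 113.7 (log2 fold change -0.62, adjusted p = 0.166). For each of these, all 5 D257A values lay below the wild-type values. Olr1, an oxidised-lipid receptor in the dimmer 50%, measured 262.2 ± 101 in D257A and 90.56 ± 60.9 in wild type. It did not pass (limma adjusted p = 0.149 with no filter), and the groups overlapped, with 157.9 to 389.6 in D257A and 8.3 to 179.9 in wild type.

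Tyrobp encodes DAP12, the adaptor that carries the signal of Trem2 and other myeloid receptors. Its signals were 6009.3, 7070.8, 4578.6, 3599.8 and 5084.9 on D257A arrays 1 to 5, against 3440.6, 3712.7, 4602.5, 2927.1 and 3701.5 on wild-type arrays 1 to 5. D257A replicates 1, 2 and 5 were above every wild-type array, while replicates 3 and 4 lay within the wild-type range. The difference came to 0.49 on the log2 scale (SE 0.2, interval 0.07 to 0.92), with an unadjusted p of 0.0267 and a limma adjusted p of 0.224. The adjusted p was between 0.0938 and 0.401 in 21 other settings.

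Trem2 encodes the lipid-sensing receptor that pairs with DAP12. Both of its probe sets were dim. The brighter, 1421226_at, measured 72.4, 243.4, 150.2, 278.1 and 123.1 on D257A arrays 1 to 5, against 119, 200.6, 237, 463.1 and 115.5 on wild-type arrays 1 to 5. The groups overlapped widely (log2 fold change -0.32, interval -1.28 to 0.64). The other, 1421792_s_at, measured 171.8, 45, 86.3, 603.3 and 143 on D257A arrays, against 83.3, 63.1, 23.8, 57.6 and 118.9 on wild-type arrays. Its sign was the opposite (log2 fold change 1.04, interval -0.17 to 2.25, adjusted p = 0.391 with no filter), and D257A replicate 4 was far above the rest.

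Of 21 further genes of TREM2 and DAP12 signalling, 18 were in the brightest 50% and 0 were called (6 higher and 2 lower at an unadjusted p under 0.05), with a median log2 fold change of 0.223. Trem3, a DAP12-linked receptor of mouse myeloid cells, measured 1201 ± 342.7 in D257A and 752 ± 92.16 in wild-type cochleae (SD, n = 5 each; log2 fold change 0.63, limma adjusted p = 0.134). Hcst, the related adaptor DAP10, measured 1042 ± 176.6 and 718.4 ± 162.7 (adjusted p = 0.197). Syk, the kinase recruited by DAP12, had the opposite sign, 861 ± 340.9 in D257A and 1312 ± 220.5 in wild type (log2 fold change -0.66, adjusted p = 0.193). In the dimmer 50%, Sirpb1a measured 674.6 ± 169.6 in D257A and 330.7 ± 145.4 in wild type, with all 5 D257A arrays above the wild-type ones, and Cst7 measured 283.1 ± 71.56 and 131.8 ± 109.4. Their adjusted p-values were 0.162 and 0.18 with no filter.

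Itgam encodes CD11b, the alpha chain of complement receptor 3, which pairs with the Itgb2 chain. Its signals were 523.1, 235.8, 514.6, 18.8 and 278.8 on D257A arrays 1 to 5, against 351, 424.6, 190, 267.6 and 322.1 on wild-type arrays 1 to 5. The highest 2 and the lowest array were all D257A. The means were close, 314.2 ± 211.2 and 311.1 ± 88.25, and the log2 fold change of -0.42 (interval -1.79 to 0.94) rested on D257A replicate 4, without which it was 0.27 (range of adjusted p over 20 settings 0.625 to 0.902).

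Itgb2 itself measured 1955 ± 490.8 in D257A and 1470 ± 453.4 in wild-type cochleae (SD, n = 5 each; limma adjusted p = 0.384). Of 11 leukocyte integrin genes and partners, 9 had a probe set of their own, and all 9 were in the brightest 50%. Of these 0 were called (2 higher and 1 lower at an unadjusted p under 0.05), with a median log2 fold change of 0.138. Plaur, the urokinase receptor that associates with CD11b, measured 1303 ± 510.5 in D257A and 677 ± 114.8 in wild type (adjusted p = 0.097). Fermt3, the kindlin that activates leukocyte integrins, measured 4198 ± 1392 and 2626 ± 574.3 (adjusted p = 0.197). Itgal, the alpha chain of LFA-1, measured 659.8 ± 146.6 in D257A and 1135 ± 293 in wild type (adjusted p = 0.121).

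**Figure D3:**
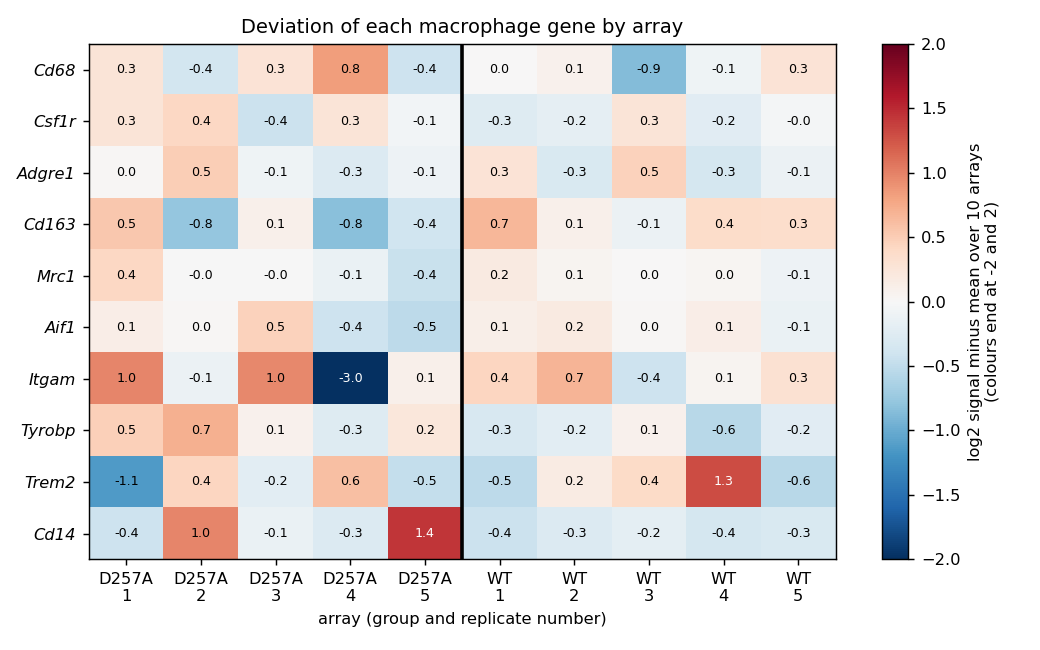
Deviation of each macrophage gene (rows, brightest probe set) from its own mean over 10 arrays, in log2(signal + 16), by array (columns, D257A left of the line and wild type right). The genes do not share one column pattern: D257A replicate 4 is high for Cd68 and low for Itgam (-2.975), and D257A replicates 2 and 5 are high for Cd14.

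Cd14 encodes the co-receptor that hands bacterial lipopolysaccharide to TLR4 and is induced in inflamed tissue. Its signals were 2164, 5688.7, 2634.9, 2385.6 and 7782.5 on D257A arrays 1 to 5, against 2147.7, 2383, 2520.2, 2253.6 and 2338.7 on wild-type arrays 1 to 5. D257A replicates 2 and 5 were more than 2-fold above every wild-type array, replicate 3 was slightly above, and replicates 1 and 4 lay within the wild-type range. The log2 fold change was 0.63 (SE 0.32, interval -0.07 to 1.32), with an unadjusted p of 0.0727 and a limma adjusted p of 0.348. It was between 0.35 and 0.81 when 1 array was left out.

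The spread of Cd14 differed more than its mean. The SD of its log2 signal was 0.828 in D257A and 0.086 in wild type, a ratio of 9.63, and 0.135% of the genes tested had a ratio at least as large. Larger D257A than wild-type spread was found for 8 of the 10 macrophage genes and for 67.1% of the genes tested, where the median ratio was 1.29. Aif1 and Mrc1 had ratios of 3.24 and 3.01, and Adgre1 and Trem2 had ratios under 1 (0.798 and 0.916). These ratios are descriptions and were not tested.

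Of 19 genes of CD14 and TLR4 signalling, 11 were in the brightest 50% and 0 were called (3 higher and 1 lower at an unadjusted p under 0.05), with a median log2 fold change of 0.0118. Il1b, the inflammatory cytokine interleukin-1 beta, had signals of 1449, 8263.5, 1799.7, 428 and 6835.6 on D257A arrays 1 to 5, against 643.3, 421.1, 834.8, 684.4 and 487.4 on wild-type arrays 1 to 5. It was highest on the same D257A arrays as Cd14, replicates 2 and 5, and within the wild-type range on replicate 4 (log2 fold change 1.92, limma adjusted p = 0.148). It passed with array weights and without D257A replicate 4 (adjusted p = 0.0403 and 0.0231), and its highest adjusted p over 20 settings was 0.307.

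Other genes of the list repeated that order in part. Tlr2, which also uses Cd14, had 747.4, 1815.4, 916.3, 1206.8 and 2634.3 on D257A arrays 1 to 5, against 710.4, 922.3, 870.4, 677.2 and 765.3 on wild-type arrays 1 to 5 (adjusted p = 0.234). Il6, in the dimmer 50%, had 1844.7 and 1065.6 on D257A replicates 2 and 5 and 86.6 to 196.9 on the other D257A arrays, against 11.7 to 91.8 in wild type (adjusted p = 0.0894 with no filter). Nfkbia, the NF-kB inhibitor that NF-kB itself induces, measured 60810 ± 20310 in D257A and 31350 ± 6902 in wild type (SD, n = 5 each), which is 0.92 on the log2 scale (adjusted p = 0.0527). Nfkbia passed in 7 of 21 settings, among them those without D257A replicate 3, D257A replicate 4 or wild-type replicate 3 (adjusted p = 0.0463, 0.0359 and 0.029), over a range of 0.0102 to 0.145. The receptor Tlr4 did not follow this order: it was 166.9 on D257A replicate 4 and 617 to 768.3 on the others, against 491.3 to 771.7 in wild type (adjusted p = 0.752).

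**Figure D4:**
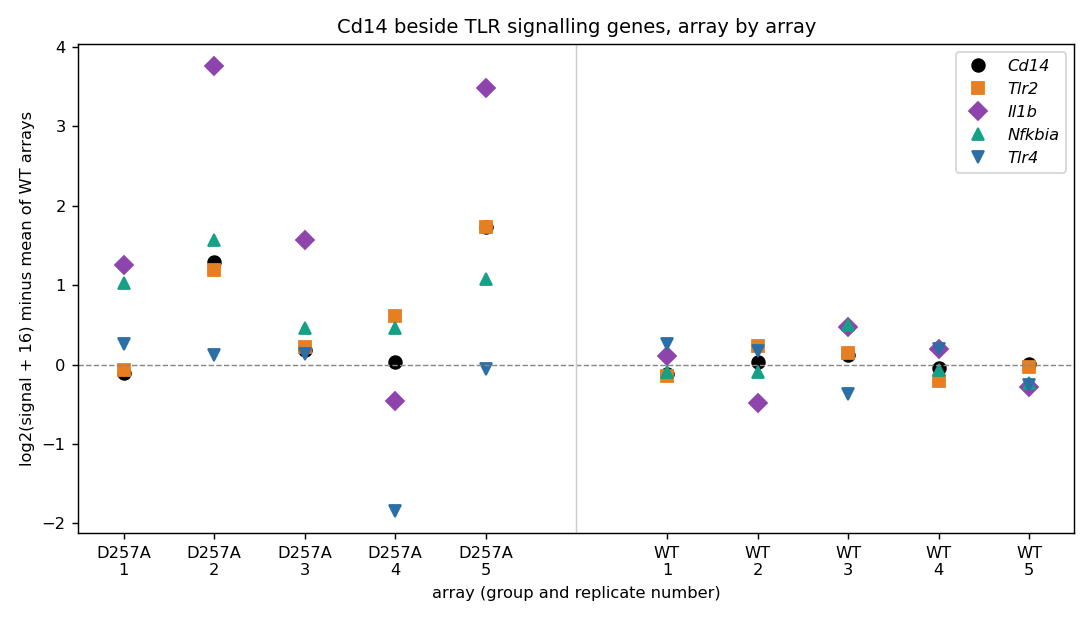
Log2(signal + 16) minus the mean of the wild-type arrays for Cd14 and 4 genes of TLR signalling, by array, D257A left and wild type right. Cd14, Tlr2 and Il1b are highest in D257A replicates 2 and 5, where Tlr4 is near 0.

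Further macrophage markers were read beside the 10 genes. Of 19, 17 were in the brightest 50% and 1 was called, lower in D257A (4 higher and 1 lower at an unadjusted p under 0.05). The median over the 17 was 0.187 on the log2 scale, with 14 above 0 and 3 below. The complement genes C1qa, C1qb and C1qc, made largely by tissue macrophages, did not pass: C1qb measured 5139 ± 648.4 in D257A and 3807 ± 914 in wild-type cochleae (SD, n = 5 each; limma adjusted p = 0.208), and C1qa and C1qc had adjusted p-values of 0.755 and 0.994. The general leukocyte genes Cd53 and Laptm5 measured 2448 ± 524.7 and 4720 ± 676.5 in D257A, against 1579 ± 227.6 and 3448 ± 742.9 in wild type (adjusted p = 0.115 and 0.232).

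The called gene was Lyz2, lysozyme of macrophages and neutrophils, which is also made by secretory epithelia. It had signals of 18850.5, 14376.4, 15596.4, 9256.2 and 13431.7 on D257A arrays 1 to 5, against 29373.2, 81971.4, 90815.8, 60798.5 and 87134.9 on wild-type arrays 1 to 5. All D257A arrays were below all wild-type arrays, and wild-type replicate 1 was the lowest of its group. The log2 fold change was -2.22 (SE 0.3, limma adjusted p = 0.00307, and 0.000181 to 0.023 over 21 settings). Of 13 mucosal epithelium markers, 9 were in the brightest 50% and 6 were called lower. The summed signal of those 9 was 60743 to 106131 in D257A and 176267 to 376627 in wild type, with no value at 0, and the list score (the mean of log2 signals centred per gene, over the genes in the brightest 50%) of wild-type replicate 1 was the lowest of its group (0.857, the others 1.424 to 2.07). Of 16 skeletal muscle markers, 8 were called lower and the other 8 did not pass, with sums of 26778 to 328164 in D257A and 227686 to 659699 in wild type. The muscle list score of wild-type replicate 1, where Lyz2 was lowest of its group, was the highest of that group (2.096, the others 0.344 to 1.908). The part of the mucosal and muscle markers in the Lyz2 result was not tested.

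Markers of particular macrophage kinds held 1 call. Of 13 resident perivascular macrophage markers, 8 were in the brightest 50% and 1 was called, Cbr2, a carbonyl reductase of tissue macrophages that is also abundant in airway epithelium. It measured 5373 ± 3385 in D257A and 15370 ± 5245 in wild-type cochleae (SD, n = 5 each), a log2 fold change of -1.65 (limma adjusted p = 0.036). It was no longer called without D257A replicate 1, 2 or 3 or wild-type replicate 1, 2, 4 or 5, with an adjusted p of up to 0.107. Siglec1, the sialic acid receptor CD169, was dim but higher on all 5 D257A arrays, with 130.3 to 512.3 against 50.9 to 104.1 in wild type (log2 fold change 1.6, adjusted p = 0.0685 with no filter). Lyve1, a hyaluronan receptor of perivascular macrophages and lymphatic endothelium, measured 717.6 ± 183.6 and 635.6 ± 190.1 (adjusted p = 0.774). The list's median log2 fold change was 0.212.

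Of 10 microglia markers, 6 were in the brightest 50% and 0 were called (2 higher and 1 lower at an unadjusted p under 0.05), with a median of -0.031. Among them Cx3cr1, the fractalkine receptor that cochlear macrophages also carry, measured 1261 ± 415 in D257A and 855.5 ± 255.2 in wild-type cochleae (SD, n = 5 each; limma adjusted p = 0.292). P2ry12, a purinergic receptor of microglia, was in the dimmer 50%, with 573.8 ± 120.3 and 548.1 ± 117. Olfml3 measured 2146 ± 707 in D257A and 4466 ± 1361 in wild type (adjusted p = 0.0601, and 0.0445 with arrays centred on the median), and Sall1, a transcription factor of microglia and of other organs, 1186 ± 151.9 and 665 ± 234.8 (adjusted p = 0.0661, with 0.0158 without wild-type replicate 3, 0.022 without D257A replicate 2 as well, and 0.0147 with array weights).

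Monocytes and neutrophils share Tyrobp, Cd14 and Itgam. Of 12 monocyte markers, 7 were in the brightest 50%, 1 was called higher and 1, Lyz2, lower, with a median log2 fold change of 0.244. Plac8, a gene of monocytes and granulocytes, measured 3615.3, 5867.8, 2921.2, 2327.9 and 4335.7 on D257A arrays 1 to 5, against 1889.3, 1871.4, 1987.4, 1754.6 and 1969.2 on wild-type arrays 1 to 5. All D257A arrays were above all wild-type ones (log2 fold change 0.93, limma adjusted p = 0.0489). Leaving out any array but D257A replicate 4 ended the call, and the adjusted p reached 0.126 without wild-type replicate 2. It also ended with arrays centred on the median, with no filter, with no intensity trend, and without both wild-type replicate 3 and D257A replicate 2.

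Of 18 neutrophil markers, 15 were in the brightest 50%, 2 were called higher (Mpo and Ctsg, proteins of neutrophil granules) and 1 lower (Ltf, lactoferrin, which glands also secrete), and 11 were higher at an unadjusted p under 0.05, with a median log2 fold change of 0.814. Mpo's call ended without D257A replicate 1, 2 or 5 or wild-type replicate 1, 2, 4 or 5 (limma adjusted p up to 0.0825). That of Ctsg ended without D257A replicate 1, 2 or 5 or wild-type replicate 2, 4 or 5 (up to 0.0846), and that of Ltf without D257A replicate 3, 4 or 5 or wild-type replicate 2, 4 or 5 (up to 0.0939). The summed neutrophil signal was 114343 to 326432 in D257A and 113856 to 189398 in wild type, with no value at 0. The neutrophil list score was 0.398, 0.502, 0.195, -0.375 and 0.816 on D257A arrays 1 to 5 and between -0.534 and -0.061 on wild-type arrays. Its highest 2 arrays were those highest for Cd14, D257A replicates 5 and 2, and its lowest D257A array, replicate 4, was also the lowest D257A array for Tyrobp and Itgam. Elsewhere the orders differed. D257A replicate 1, with a score of 0.398, was the lowest D257A array for Cd14 (2164). Itgam was higher on D257A replicates 1 and 3 (523.1 and 514.6) than on replicates 2 and 5 (235.8 and 278.8). The part of neutrophils in the Tyrobp and Cd14 values was not tested.

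Other cells that could carry these genes were measured too. Of 10 general leukocyte genes, 9 were in the brightest 50% and 0 were called (3 higher at an unadjusted p under 0.05), with a median log2 fold change of 0.311. Of 11 osteoclast markers, bone-resorbing cells that also depend on Csf1r, 6 were in the brightest 50% and 0 were called, with a median of -0.0774. Ctsk, the osteoclast collagenase, measured 1915 ± 591.9 in D257A and 2983 ± 597.8 in wild-type cochleae (SD, n = 5 each; limma adjusted p = 0.148). Few dendritic, T and B cell markers were bright: 3 of the 8, 2 of the 11 and 3 of the 10 with a probe set (9, 14 and 11 were named). In these lists 1 gene was called, the immunoglobulin joining chain Jchain of plasma cells, which measured 1097 ± 299.6 in D257A and 2925 ± 475.1 in wild type (log2 fold change -1.43, adjusted p = 0.00413). The medians of the dendritic, T and B lists were 0.0102, 0.208 and -0.125.

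**Figure D5:**
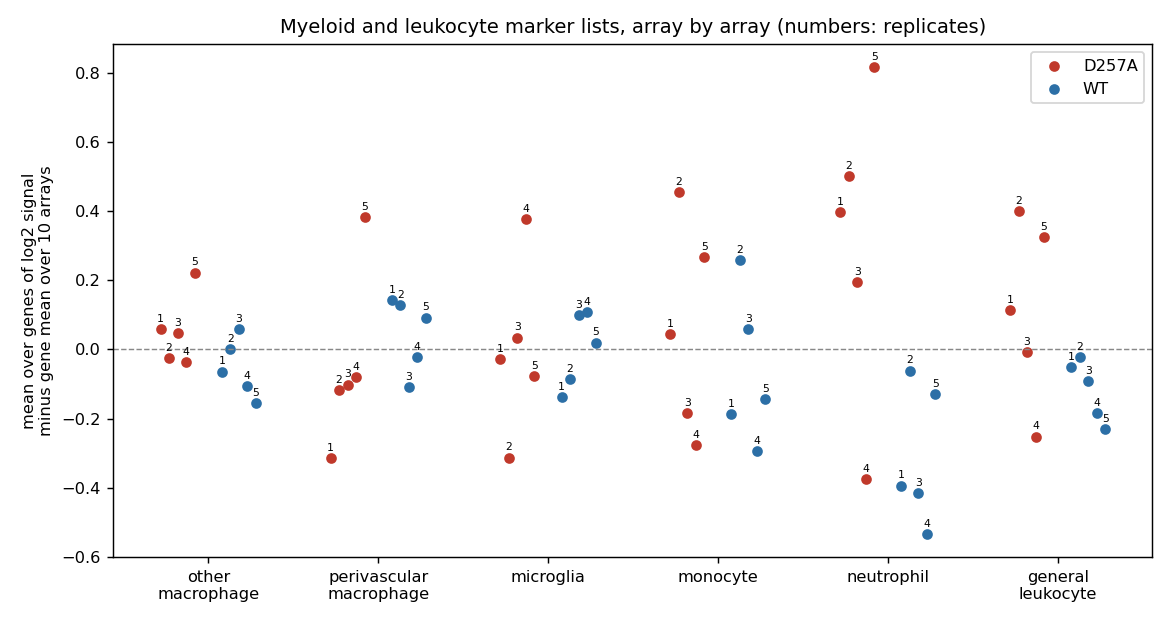
Mean over those genes of each marker list that lie in the brightest 50% of log2(signal + 16) minus the gene's mean over 10 arrays; each point is 1 array with its replicate number, D257A left and wild type right in each list. The neutrophil scores are highest in D257A replicates 5 (0.816) and 2 (0.502). The other macrophage markers span -0.037 to 0.222 in D257A and -0.156 to 0.059 in wild type. Their mean includes Lyz2 (log2 fold change -2.22), and 14 of these 17 genes had a log2 fold change above 0.

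The 10 genes were also averaged into 1 profile, the mean of log2 signals centred per gene. It was 0.152, 0.177, 0.1, -0.349 and -0.065 on D257A arrays 1 to 5 and -0.054 to 0.033 on wild-type arrays, so the D257A arrays lay on both sides of the wild-type ones. Its low point in D257A replicate 4 was largely that of the dim Itgam (-2.975). Over the 7 genes in the brightest 50% alone, the mean was 0.162, 0.319, 0.022, -0.04 and 0.016 on D257A arrays 1 to 5, against -0.061, -0.094, -0.034, -0.198 and -0.092 on wild-type arrays 1 to 5. D257A replicates 1, 2, 3 and 5 then lay above every wild-type array and replicate 4 within their range, which is a description without a test. The 7 genes did not move together. On D257A replicate 5 only Tyrobp (0.234) and Cd14 (1.423) were above their own means. Cd68 (-0.409), Csf1r (-0.056), Adgre1 (-0.101), Mrc1 (-0.449) and Aif1 (-0.529) were below theirs. The 5 genes most like the profile of all 10 over the 10 arrays were Lbr, Strada, Gm4274, Snx25 and St6galnac3, with Pearson correlations of 0.968, 0.948, 0.945, 0.943 and 0.939 and Spearman correlations of 0.988, 0.855, 0.939, 0.927 and 0.915. None is in the lists above, and the arrays share their scaling. They were the highest of all genes tested over only 10 arrays, so high correlations can come from the choice alone. The profile they follow includes the low point in D257A replicate 4 that was largely that of Itgam.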

How the data were processed

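RNA of 10 cochlea samples had been hybridised to mouse Affymetrix arrays. The deposited values are linear array intensity per probe set, and the submitters' processing notes name GCOS 1.3. Background correction and probe summary were not given in the sources used here. No batch was examined. The 2% trimmed mean was 1494 to 1496 on each array, and this scaling was kept. The 64 control probe sets, filled on 1 array only, were left out.

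Probe sets took their gene from the platform table, with symbols updated by gene ID (34945 with 1 gene, 932 with several, 9160 unnamed here). With limma 3.58.1 under R 4.3.3, lmFit and eBayes (intensity trend) were applied to log2(intensity + 16) with group as the only term and 8 residual degrees of freedom, two-sided, on the brightest 50% of probe sets by mean over all arrays, and again on all of them. A set called dim lies outside that 50%. Named beyond the 10 genes were up to 3 genes per list, those of smallest unadjusted p without a filter, with some further list members chosen after their values were seen (Csf1, Hcst, Syk, Itgb2, Tlr2, Tlr4, C1qa, C1qc, Lyve1, P2ry12), and the 5 genes most like the mean profile. The genes and lists were chosen with earlier results of these data known. Scripts were tested on simulated data.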

Additional observations from a re-analysis of the deposited data

Results flagged for a closer look

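Of 26 groups of 5 values examined (13 probe sets in each genotype), 1 held a value set apart from the others by more than 0.71 of the group's range. Chance gives this in about 1 in 20 groups of normally distributed values. The value set apart was that of the dimmer Trem2 probe set, 1421792_s_at, in D257A replicate 4. Its signal was 603.3 against 45 to 171.8 on the other D257A arrays. The gap was 0.773 of the range on the linear scale, and a log2 scale can set other values apart. In centred log2 signals, Itgam in D257A replicate 4 was at -2.975, against -0.12 to 0.978 on the other D257A arrays. The brighter Trem2 probe set had 278.1 on that array, within the wild-type range of 115.5 to 463.1. The 2 high Cd14 values do not meet this criterion, since each is the other's neighbour.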

How the results depend on the processing

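No macrophage gene was called in any of 21 alternative settings, from pseudocounts of 1 and 64 to the mean of a gene's probe sets; the smallest adjusted p among them was 0.0938, for Tyrobp with array weights. The median log2 fold change of the 10 genes stayed between -0.131 (arrays centred on the median) and 0.073 (without D257A replicate 4). Signs turned for 5 of the 10, all uncalled: Adgre1 to -0.08 with arrays centred on the median and between -0.1 and 0.13 when 1 array was left out, Itgam between -0.72 and 0.27, and Mrc1 between -0.19 and 0.03. With the mean of a gene's probe sets, Csf1r was -0.04 and Trem2 0.36.

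The number of probe sets called over the whole array moved from 513 to 322 among the brightest 30%, to 1217 with array weights and to 188 with the replicate number as a block, and was between 168 (wild-type replicate 2) and 574 (wild-type replicate 3) when 1 array was left out. The cause was not tested. The block also ended the calls of Cebpa, Ctsg, Ltf and Plac8. Same-numbered arrays deviated together with correlations of -0.337 to 0.183, and 2 of the 5 D257A arrays correlated best with the wild-type array of their number. The sample titles give only a number, and so few arrays cannot settle whether same-numbered samples were paired. With array weights the list genes Nfkbia, Il6, Il1b, Itgal, Cd36, Siglec1, Sall1, Chil3, Zap70, Slc26a5 and Otog also passed. The number of arrays and the low signals of Cd163, Itgam and Trem2 limit these values.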

Other observations

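The genes most like Cd14 over the 10 arrays were listed after its values had been seen, so their likeness is a description. The first 8 of the tested genes were Sbno2, Ptx3, Tlr2, Tnfaip3, Cebpb, Abca4, Cebpd and Socs3, with Pearson correlations of 0.965, 0.956, 0.949, 0.94, 0.936, 0.933, 0.928 and 0.927 (n = 10 arrays) and Spearman correlations between 0.442 and 0.879. Ptx3, a soluble pattern receptor of the acute phase, had signals of 595.1, 4982.1, 1219.8, 811.5 and 4334.9 on D257A arrays 1 to 5, against 445.6 to 769.6 in wild type. Socs3, the feedback inhibitor of cytokine signalling, had 15976.2 and 11406.1 on D257A replicates 2 and 5 and 2211.1 to 2889 on the other D257A arrays, against 1718.5 to 3452.6 in wild type. Tnfaip3, the NF-kB feedback gene A20, had 4031.8 and 4047.2 on those replicates and 1427.2 to 1640.9 on the other D257A arrays, against 849.4 to 1655 in wild type. None of the 8 was called; Cebpd, with a log2 fold change of 1.45, had the smallest limma adjusted p (0.0568). All 8 were highest on D257A replicates 2 and 5. The rank-based Spearman correlations, which weigh these 2 arrays less, differed between the genes. They were highest for Tnfaip3, Tlr2 and Ptx3 (0.879, 0.867 and 0.842) and lowest for Abca4 and Socs3 (0.467 and 0.442). How far the likeness rests on the 2 arrays was not tested.

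The genes most like Tyrobp were others. Fermt3, Phyhipl, Sbno1, Fam104a, Wfdc21, S100a9, Skap2 and Rbm25 had Pearson correlations with it of 0.948 to 0.976 and Spearman correlations of 0.855 to 0.988 (n = 10 arrays). S100a9, the calprotectin subunit of neutrophils and monocytes, had signals of 76617.9, 107779.2, 49496.7, 31605 and 70418.1 on D257A arrays 1 to 5, against 34657.6, 40954.5, 39754.2, 21706.2 and 25176 on wild-type arrays 1 to 5. Tyrobp and S100a9 ordered the D257A arrays as replicates 2, 1, 5, 3 and 4 from high to low. Fermt3, Phyhipl, Sbno1, Wfdc21, Skap2 and Rbm25 had the same order and Fam104a did not, so this order was not particular to S100a9. The log2 fold change of S100a9 was 0.98 and did not pass (limma adjusted p = 0.113).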
